A study of Homo sapiens with 12 samples.

Results

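Glycosylphosphatidylinositol (GPI) anchor synthesis genes code for the enzymes that build a GPI glycolipid in the endoplasmic reticulum (ER), attach it to proteins and remodel it afterwards. The 31 genes described here were taken by symbol from the 20293 genes listed for either cell line. The list was selected on the strong fall of PIGV in both lines, so the PIGV values are a description and carry no test. In HepG2, 29 of the 31 were listed and all 29 passed the filter on low counts, and in Huh7 30 were listed and all 30 passed. PIGY was listed in neither line and PGAP4 was not listed in HepG2. In the GENCODE annotation every exon base of PIGY lies within PYURF on the same strand.

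RNA-Seq was run on 2 human liver cancer cell lines with wild-type genotype, HepG2 and Huh7, labelled as hepatocellular carcinoma. Each line was transfected by lipofectamine RNAiMAX with UBL5 siRNA or with a nontarget control (Ctrl-siRNA), and the labels give 52 h of treatment, somewhat longer than the time in the study's figure legend. There were 3 libraries per siRNA in each line. The study lists a single siRNA product against UBL5, so effects of losing UBL5 and effects particular to that siRNA cannot be told apart. UBL5 is a ubiquitin-like protein that binds spliceosome components, and the comparison asks which transcripts change when it is depleted.

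GPI synthesis starts on the outer face of the ER membrane, where N-acetylglucosamine (GlcNAc) is put on phosphatidylinositol and then loses its acetyl group. The lipid is flipped inward, acylated on inositol, extended with mannoses from dolichol-phosphate-mannose and given ethanolamine phosphate groups. A transamidase then swaps the C-terminal signal of a protein for the finished anchor, and remodelling enzymes trim the anchor in the ER and Golgi. Glypican-3, a surface proteoglycan of liver cancer cells, and the urokinase receptor are held on the membrane in this way.

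Because UBL5 binds spliceosome proteins, the 5′ splice sites of a few members are shown, from PIGV and PIGX, which were lower in both lines, and from PIGW and DPM3, which were higher in both. They were chosen with the values known. Each line gives 20 bases of GRCh38, the last 8 of the exon and the first 12 of the intron, read 5′ to 3′ on the gene's strand from the canonical GENCODE transcript. The first 6 intron bases are in capitals. PIGV lies on the plus strand at chr1:26787054-26800659, and its intron 1 and intron 2 donors are at chr1:26788261-26788280 and chr1:26790886-26790905. PIGX lies on the plus strand at chr3:196639775-196736007, and its intron 2 and intron 3 donors are at chr3:196716914-196716933 and chr3:196722549-196722568. PIGW lies on the plus strand at chr17:36534987-36539310 with its only donor at chr17:36535585-36535604, and DPM3 lies on the minus strand at chr1:155139891-155140595 with its only donor at chr1:155140479-155140498.
PIGV intron 1: cctctgggGTGAGCgtggat
PIGV intron 2: tgctgcagGTCAGTctccca
PIGX intron 2: ttccacagGTAAGTtgcctg
PIGX intron 3: taacagagGTACAGttatta
PIGW intron 1: catttggaGTACGTgaggta
DPM3 intron 1: gggtagagGTAAGTgtaggt

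The letters GTAAGT, the start of the consensus donor, were searched only at the first 6 intron bases on the gene's strand. They stood at 47 of the 237 introns of the 30 members that have introns (19.8%) and at 13.9% of the 190165 introns of all protein-coding genes. Neither PIGV donor shown above nor the single PIGW intron held them, while the single DPM3 intron did. PIGX had them at 1 of 5 introns, PIGP at 2 of 4, PIGQ at 1 of 10 and PIGB at 6 of 11. PGAP1 held the most, at 9 of 26 introns, and PIGU had them at 6 of 11. The share over the members is thus raised by a few genes, and nothing is read from its difference to all genes. A match is a description of the letters, and the gene counts hold no measure of splicing.

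The libraries held 19469574 to 29744471 counts. UBL5 itself fell from 58.2 ± 2.51 to 4.66 ± 2.06 CPM (counts scaled to library size with TMM factors, SD, n = 3) in HepG2 and from 68.6 ± 1.91 to 6.31 ± 0.452 CPM in Huh7 (adjusted p = 8.36e-05 and 2.86e-10, edgeR quasi-likelihood test). All 7 hepatocyte markers were listed in both lines, with summed levels of 36490 to 42060 CPM in HepG2 and 21360 to 24100 CPM in Huh7. None of the 3 leukocyte markers was listed, and the endothelial and fibroblast marker sums were at most 6.45 and 19.7 CPM, with the fibroblast sum higher with UBL5 siRNA in Huh7 (8.71 to 15.5 CPM) than with Ctrl-siRNA (4.51 to 5.79 CPM). HepG2 Ctrl-siRNA replicate 3 stood apart, with 1773 listed genes at 0 counts against 159 to 233 in the other HepG2 libraries. The column headers of both HepG2 libraries numbered 3 lack a suffix that the other columns carry, and what it marks is not stated, so the HepG2 count of members called is also given without both.

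PIGV codes for the mannosyltransferase that adds the second mannose. In HepG2 its counts were 628, 590 and 533 in the Ctrl-siRNA libraries and 141, 123 and 74 in the UBL5 siRNA libraries. In Huh7 they were 290, 265 and 246 with Ctrl-siRNA and 21, 14 and 34 with UBL5 siRNA. The groups did not overlap in either line, and these are the values that chose the list. On the CPM scale PIGV went from 22.2 ± 3.85 to 5.05 ± 1.19 in HepG2, 77.2% fewer, and from 11.5 ± 1.05 to 1.10 ± 0.445 in Huh7, 90.4% fewer (SD, n = 3). The log2 fold changes were -2.13 (SE 0.213) and -3.36 (SE 0.201), the most negative among the members in each line. Without Huh7 UBL5 siRNA replicate 3, the library with 34 counts, the Huh7 value was -3.70.

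**Figure D1:**
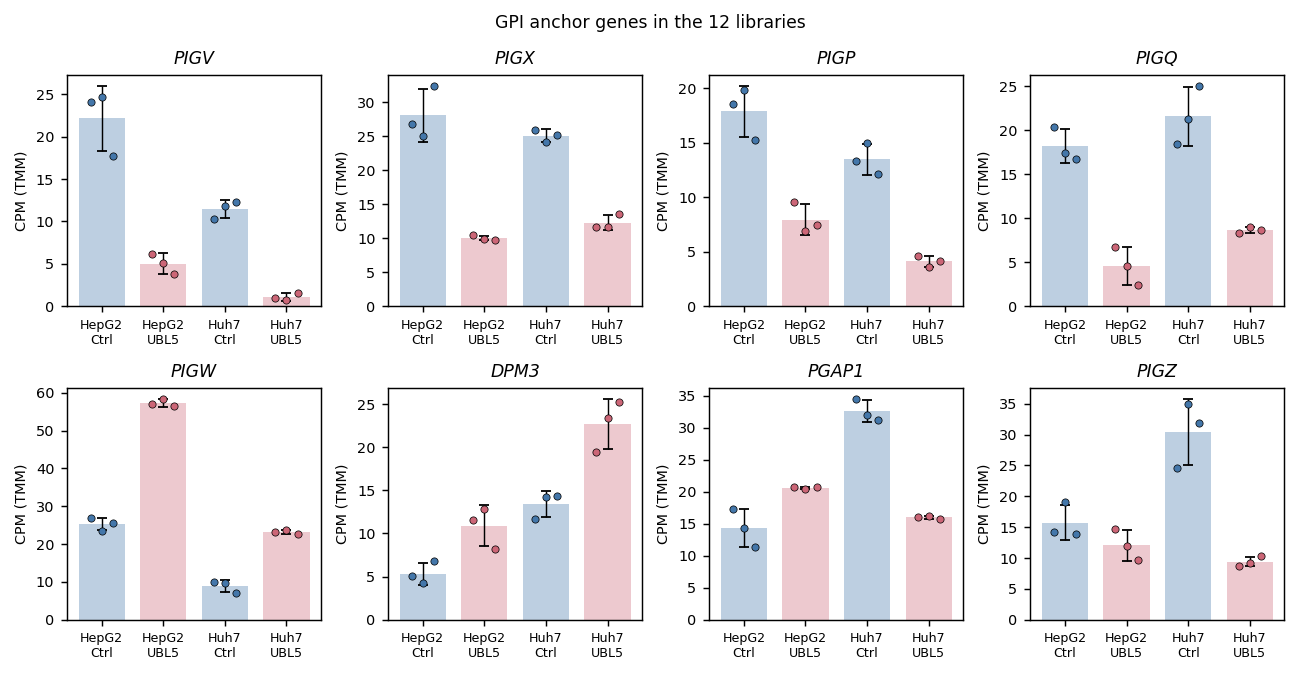
Level of 8 GPI anchor genes in CPM (y axis, from 0) in the 12 libraries, by cell line and siRNA (x axis); bars are means, error bars are SD over 3 libraries and points are libraries. PIGV, PIGX, PIGP and PIGQ are lower with UBL5 siRNA in both lines without overlap, PIGW and DPM3 are higher, and PGAP1 goes up in HepG2 and down in Huh7.

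Across the other members, falls outnumbered rises, and more so in Huh7. In HepG2, 4 of 28 rose, 10 fell and 14 were not called, that is 50.0% called, with a median log2 fold change of -0.27 against 0.01 over all genes tested. Over all genes tested in HepG2, 36.7% were called, 20.1% lower and 16.5% higher, and 23.8% of protein-coding genes were lower. In Huh7, 3 of 29 rose, 21 fell and 5 were not called, that is 82.8% called, with a median of -0.56. Over all genes tested in Huh7, 71.3% were called, 36.4% lower and 34.9% higher, and 37.9% of protein-coding genes were lower. As the list was drawn from these contrasts, nothing is read from the difference to the background.

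Of the 28 members tested in both lines besides PIGV, 10 fell in both: PIGB, PIGC, PIGF, PIGO, PIGP, PIGQ, PIGX, PGAP3, DPM1 and DPM2. PIGW and DPM3 rose in both. PGAP1 rose in HepG2 and fell in Huh7. Another 11 were called only in Huh7, PIGU only in HepG2, and PIGA, PIGH and PIGL in neither. HepG2 thus had 14 calls, of which 12 (85.7%) were also called with that sign in Huh7, and Huh7 had 24, of which those 12 were 50.0%. Over the 14518 genes tested in both lines, the same shares were 80.9% of the HepG2 calls and 43.1% of those in Huh7, so the members lay near the background.

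The HepG2 count of members called changed with the libraries kept, as did the count over all genes. It was 9 without Ctrl-siRNA replicate 1, 8 without Ctrl-siRNA replicate 2 and 7 without UBL5 siRNA replicate 2. It was 16 without both libraries numbered 3. Over all genes tested, 5780 of 15755 were called with every library kept. In those leave-outs, in that order, 4627 of 16092, 4365 of 16215, 3819 of 16123 and 7170 of 15986 were called. The calls of PIGB, PIGP, PIGQ, PIGX, PIGU, PIGW and DPM3 held whichever HepG2 library was left out. The other 7 calls, PIGC, PIGF, PIGO, PGAP1, PGAP3, DPM1 and DPM2, were each lost without UBL5 siRNA replicate 2, with adjusted p of 0.0566 for DPM2 to 0.141 for PIGO, and each without at least 1 other library. The PIGO call was lost whichever HepG2 library was left out (adjusted p = 0.0529 to 0.141). The common dispersion of counts between HepG2 libraries, as a biological coefficient of variation, was 0.189, and that between Huh7 libraries was 0.0663.

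**Figure D2:**
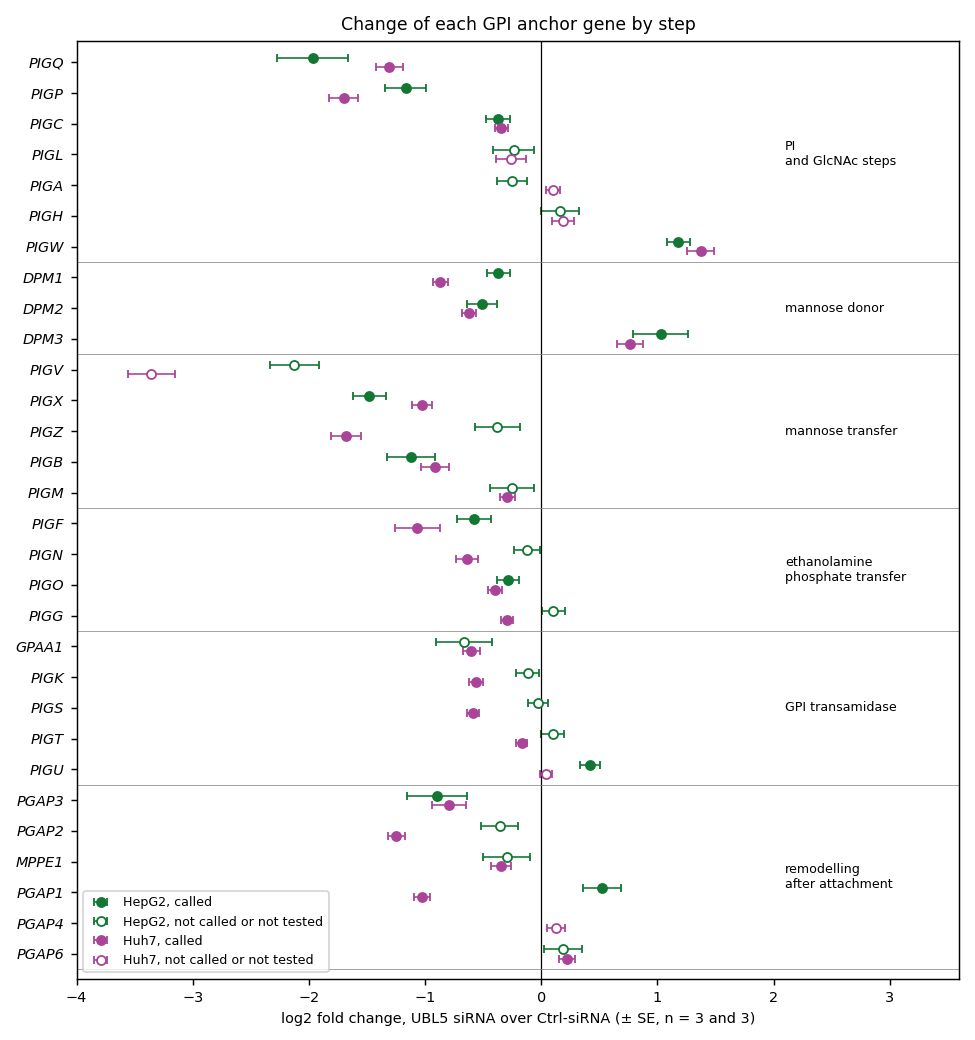
log2 fold change of each member, UBL5 siRNA over Ctrl-siRNA (x axis, bars are SE, 3 libraries against 3), grouped by step (y axis); filled points passed an adjusted p of 0.05 and open points did not or, for PIGV, were not tested. PIGV lies furthest left in both lines, and PIGW and DPM3 lie furthest right in each line.

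The first steps are carried out by a GlcNAc transferase complex, with PIGA as its catalytic subunit and PIGC, PIGH, PIGP, PIGQ, PIGY and DPM2 around it. PIGP had 485, 473 and 459 counts with Ctrl-siRNA and 216, 167 and 143 with UBL5 siRNA in HepG2, and 375, 336 and 242 against 94, 73 and 90 in Huh7. The groups were apart in both lines, and PIGP fell by 1.17 (SE 0.175, adjusted p = 0.00125) and by 1.70 (SE 0.126, adjusted p = 2.71e-07) on the log2 scale. PIGQ counts were 532, 415 and 504 against 153, 112 and 47 in HepG2, and 518, 478 and 500 against 168, 181 and 188 in Huh7. UBL5 siRNA replicate 3 of HepG2 was the lowest for PIGQ, and the gene fell with a log2 fold change of -1.97 (SE 0.305, adjusted p = 0.00145) in HepG2 and -1.31 (SE 0.116, adjusted p = 1.22e-06) in Huh7. In the annotation 14.2% of PIGQ exon bases lie within other gene models on the same strand, NHLRC4 and ENSG00000282907. PIGC fell by 0.37 and 0.34 in HepG2 and Huh7. PIGA, the catalytic subunit, was at 25.3 ± 3.12 and 21.2 ± 1.48 CPM in HepG2 and at 36.1 ± 1.17 and 38.8 ± 1.63 CPM in Huh7, with overlapping groups and no call in either line (adjusted p = 0.166 and 0.153). PIGH was not called either, with log2 fold changes of 0.16 (SE 0.164) and 0.18 (SE 0.0947).

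PIGL, the deacetylase of the next step, went from 11.7 ± 1.87 to 9.93 ± 1.44 CPM in HepG2 and from 6.20 ± 0.632 to 5.15 ± 0.350 CPM in Huh7, with overlapping groups and no call in either line (adjusted p = 0.337 and 0.0845). Without Huh7 Ctrl-siRNA replicate 1 its Huh7 log2 fold change was -0.349 and passed (adjusted p = 0.0373). PIGW, the acyltransferase that acylates inositol, moved the other way from most members. Its counts were 699, 563 and 766 with Ctrl-siRNA and 1294, 1410 and 1088 with UBL5 siRNA in HepG2, and 278, 220 and 139 against 468, 475 and 491 in Huh7. Every UBL5 siRNA library was above every Ctrl-siRNA library of its line. PIGW rose 2.27-fold in HepG2 (log2 1.18, SE 0.0978, adjusted p = 0.000125) and 2.61-fold in Huh7 (log2 1.37, SE 0.116, adjusted p = 8.09e-07). In the annotation 21.7% of PIGW exon bases lie opposite MYO19, and as the strand setting of the counting was not given in the sources used here, reads of that partner may be among its counts.

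Dolichol-phosphate-mannose, the mannose donor, is made by DPM1, the catalytic subunit, with DPM2 and DPM3 as its regulatory and tethering partners. DPM1 and DPM2 fell in both lines while DPM3 rose. DPM1 went from 3084, 2548 and 3612 counts to 2212, 2003 and 1667 in HepG2 and from 2174, 1541 and 1383 to 769, 813 and 853 in Huh7. The fall was 0.37 (SE 0.0960, adjusted p = 0.0162) in HepG2 and 0.87 (SE 0.0628, adjusted p = 2.21e-07) in Huh7 on the log2 scale. DPM2 fell by 0.51 and 0.62 (adjusted p = 0.0139 and 2.55e-06). DPM3 counts were 131, 102 and 203 against 263, 311 and 159 in HepG2, and 327, 320 and 286 against 395, 469 and 543 in Huh7. On the CPM scale the groups were apart in both lines, at 5.34 ± 1.27 and 10.9 ± 2.39 in HepG2 and 13.4 ± 1.55 and 22.7 ± 2.93 in Huh7, a rise of 1.03 (adjusted p = 0.00953) and 0.77 (adjusted p = 8.54e-05) on the log2 scale.

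The mannoses are added in turn by PIGM, which needs PIGX for its stability, then PIGV, PIGB and PIGZ. PIGX had 701, 598 and 977 counts against 237, 241 and 189 in HepG2 and 731, 542 and 503 against 237, 234 and 294 in Huh7. The groups were well apart, with a fall of 1.48 (SE 0.139, adjusted p = 0.000186) in HepG2 and 1.03 (SE 0.0848, adjusted p = 6.67e-07) in Huh7. PIGB, which adds the third mannose, fell by 1.12 in HepG2 (adjusted p = 0.00328) and by 0.91 in Huh7 (adjusted p = 3.18e-05). In the annotation 14.2% of PIGB exon bases lie opposite CCPG1, DNAAF4-CCPG1, PIGBOS1 and RAB27A. PIGM fell in Huh7 from 34.3 ± 1.37 to 28.1 ± 1.61 CPM (adjusted p = 0.00234) and stood at 16.2 ± 1.72 and 13.6 ± 3.33 CPM in HepG2, where it was not called (adjusted p = 0.335). PIGZ, which adds a further mannose to some anchors, had 691, 784 and 636 counts against 178, 186 and 221 in Huh7, a fall of 1.69 (SE 0.129, adjusted p = 3.48e-07). In HepG2 the PIGZ groups overlapped, with 373, 454 and 419 against 333, 288 and 186 counts and no call (adjusted p = 0.163). All 4 mannose transfer genes besides PIGV fell in Huh7 and 2 of the 4 fell in HepG2. Over all genes tested, 36.4% were lower in Huh7 and 20.1% in HepG2. As the list was chosen on PIGV, a gene of this step, nothing is read from that count.

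Ethanolamine phosphate is added to the first mannose by PIGN, to the third by PIGO and to the second by PIGG, and PIGF is the partner of PIGO and PIGG. PIGF, at 397, 326 and 361 against 219, 210 and 173 counts in HepG2 and 126, 114 and 83 against 58, 41 and 36 in Huh7, fell by 0.58 (adjusted p = 0.0153) and 1.07 (adjusted p = 0.000360). The groups did not overlap in either line. PIGO fell by 0.28 and 0.40 (adjusted p = 0.0396 and 5.95e-05), and its HepG2 call was also lost with other size factors (adjusted p = 0.0605) and with no filter (adjusted p = 0.0626). PIGN and PIGG fell by 0.64 and 0.29 in Huh7 (adjusted p = 8.35e-05 and 0.000443), while in HepG2 their groups overlapped and neither was called (adjusted p = 0.421 and 0.456). In the annotation 25.7% of PIGF exon bases lie opposite CRIPT and RHOQ.

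The GPI transamidase attaches the anchor, with PIGK as its protease-like catalytic subunit and GPAA1, PIGS, PIGT and PIGU as partners. In Huh7 PIGK, GPAA1, PIGS and PIGT fell. In HepG2 PIGU rose and no other was called, though GPAA1 came close to the threshold with a fold change like that in Huh7. PIGS had 6181, 5029 and 4261 counts against 3146, 2899 and 2981 in Huh7, 33.4% fewer on the CPM scale (adjusted p = 9.83e-07). In HepG2 PIGS stood at 118.3, 130.7 and 117.1 CPM with Ctrl-siRNA and 115.3, 120.6 and 122.9 CPM with UBL5 siRNA, with overlapping groups (adjusted p = 0.819). PIGK fell by 0.56 in Huh7 (adjusted p = 8.86e-06) and was at 53.5 ± 4.60 and 49.3 ± 1.83 CPM in HepG2 (adjusted p = 0.394). PIGT fell by 0.17 in Huh7 (adjusted p = 0.00899), which was lost without UBL5 siRNA replicate 2 (adjusted p = 0.0624). PIGU, at 1830, 1811 and 2131 against 2251, 2243 and 1880 counts, rose 1.34-fold on the CPM scale in HepG2 (adjusted p = 0.00486) and stood at 66.4 ± 2.91 and 68.3 ± 2.45 CPM in Huh7 (adjusted p = 0.508).

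GPAA1 was the least settled of the transamidase genes in HepG2. Its counts were 1653, 1435 and 1477 with Ctrl-siRNA and 1127, 862 and 447 with UBL5 siRNA, and on the CPM scale the groups overlapped narrowly at 49.1 and 49.7. The log2 fold change of -0.66 (SE 0.239) missed the threshold with adjusted p = 0.0575 and passed it with DESeq2 (adjusted p = 0.0178), without Ctrl-siRNA replicate 3 (adjusted p = 0.0271) and without UBL5 siRNA replicate 1 (adjusted p = 0.0106). In Huh7 GPAA1 fell by 0.60 (adjusted p = 2.30e-05). In the annotation 21.5% of GPAA1 exon bases lie within another gene model on the same strand, ENSG00000290230, so its counts are uncertain.

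After attachment PGAP1 removes the acyl group from inositol, MPPE1 removes an ethanolamine phosphate, PGAP3 and PGAP2 exchange a lipid chain, PGAP4 adds a sugar and PGAP6 cuts the anchor lipid at the cell surface. PGAP1 had 453, 344 and 341 counts against 470, 492 and 400 in HepG2 and 972, 719 and 624 against 325, 326 and 340 in Huh7. On the CPM scale its groups were apart in both lines in opposite directions, at 17.4, 14.4 and 11.3 against 20.7, 20.4 and 20.8 in HepG2 and from 32.6 ± 1.70 to 16.01 ± 0.224 in Huh7. The HepG2 rise was 0.52 (adjusted p = 0.0350) and the Huh7 fall 1.03 (adjusted p = 1.39e-07), and the HepG2 call was lost without Ctrl-siRNA replicate 2 or without any one of the UBL5 siRNA replicates (adjusted p = 0.0689 to 0.0941).

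PGAP3 fell by 0.90 in HepG2 (adjusted p = 0.0249) and by 0.80 in Huh7 (adjusted p = 0.000417). PGAP2 fell by 1.25 in Huh7 (adjusted p = 4.31e-08), and its HepG2 counts of 902, 726 and 682 against 514, 552 and 439 gave -0.36 (adjusted p = 0.108). Without HepG2 Ctrl-siRNA replicate 3, the lowest PGAP2 control on the CPM scale, the value was -0.51 (adjusted p = 0.00597). MPPE1, with 33.4% of its exon bases opposite GNAL, fell by 0.35 in Huh7 (adjusted p = 0.00405) and was not called in HepG2 (-0.30, adjusted p = 0.282). PGAP6 rose by 0.22 in Huh7 (adjusted p = 0.0146), while in HepG2 it had 110.4, 111.2 and 72.0 CPM with UBL5 siRNA and was called only without UBL5 siRNA replicate 3 (adjusted p = 0.0211) or without both libraries numbered 3 (adjusted p = 0.0164). PGAP4, listed in Huh7 alone, was at 14.3 ± 0.410 and 15.6 ± 0.315 CPM with no call (adjusted p = 0.165).

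The effect of the siRNA differed between the lines for 9 of the 28 members tested besides PIGV, against 21.5% of all genes in the same test. Each of the 9 had the lower value in Huh7, while over all genes 1548 were lower and 1826 higher in Huh7. The difference, the Huh7 log2 fold change minus that of HepG2, was -1.58 (SE 0.177, adjusted p = 8.54e-05) for PGAP1, -1.34 (SE 0.247, adjusted p = 0.00206) for PIGZ and -0.92 (SE 0.177, adjusted p = 0.00262) for PGAP2. It was smaller for PIGS (-0.59), PIGN (-0.54), DPM1 (-0.53), PIGK (-0.47), PIGG (-0.42) and PIGU (-0.41). Of the 5 transamidase genes, PIGS, PIGK and PIGU were among them, and PIGT was at -0.30 (adjusted p = 0.0597). The PIGT difference passed with DESeq2 (adjusted p = 0.0235), with RLE size factors (0.0491), with the replicate block (0.0278) and without HepG2 Ctrl-siRNA replicate 2 (0.0130). No member of the GlcNAc steps differed between the lines at this threshold, with 0.63 (SE 0.333, adjusted p = 0.209) for PIGQ, -0.56 (SE 0.226, adjusted p = 0.0956) for PIGP and 0.17 (SE 0.162, adjusted p = 0.517) for PIGW. Without HepG2 UBL5 siRNA replicate 1 the PIGQ difference was 0.997 (adjusted p = 0.0245). The PIGX difference was also above 0, at 0.43 (SE 0.165, adjusted p = 0.0837). Without HepG2 Ctrl-siRNA replicate 2 it was 0.505 (adjusted p = 0.0479). For PIGV the difference was -1.26 (SE 0.335), given with no test.

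**Figure D3:**
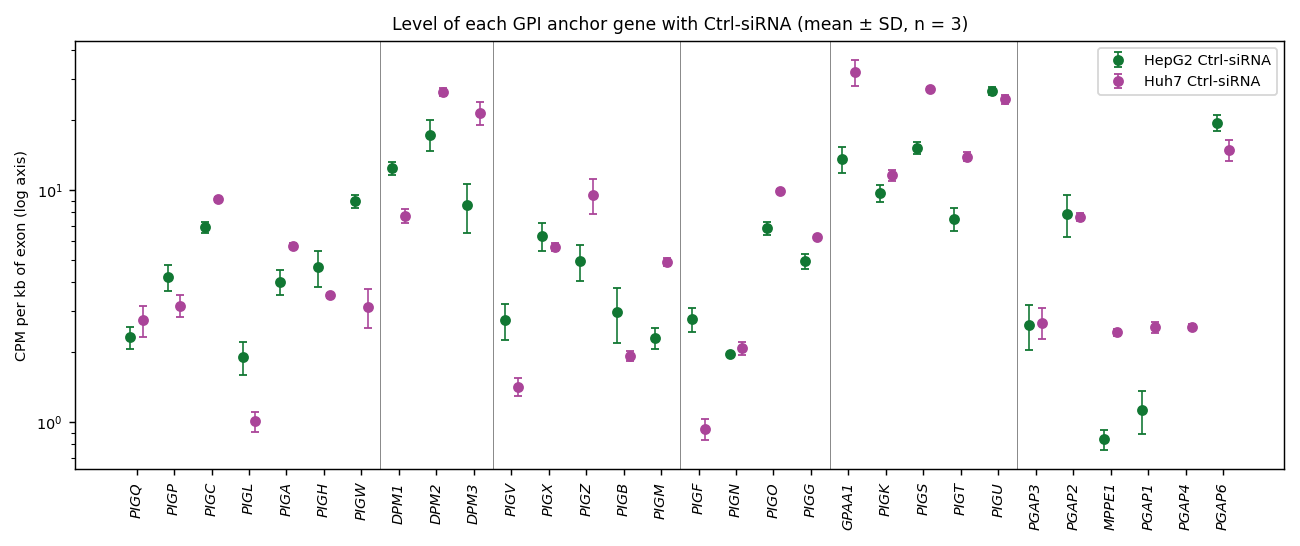
Level of each member in the Ctrl-siRNA libraries as CPM per kb of annotated exon (y axis, log scale), mean ± SD of 3 libraries in HepG2 and in Huh7 (colours), with members along the x axis grouped by step. Most transamidase and mannose donor genes sit among the highest, and PIGV, PIGL, PIGF and MPPE1 among the lowest in at least 1 line.

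Per kb of all annotated exon bases, the most abundant members with Ctrl-siRNA were PIGU at 26.7 CPM per kb in HepG2 and GPAA1 at 32.2 CPM per kb in Huh7. The lowest were MPPE1 at 0.840 in HepG2 and PIGF at 0.931 in Huh7. PIGV, the gene with the largest fall, was a low member in both lines, at 2.74 CPM per kb in HepG2 and 1.42 in Huh7. Levels per kb depend on the length taken, and with the longest transcript in place of all exon bases DPM1 in HepG2 went from 12.4 to 38.3 CPM per kb and PIGV from 2.74 to 4.46. On that scale the most abundant member in Huh7 was PIGS (49.5, with GPAA1 at 48.2) and the lowest in HepG2 was PGAP1 (1.29, with MPPE1 at 1.71), while PIGU stayed highest in HepG2 and PIGF lowest in Huh7.

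With Ctrl-siRNA, 22 of the 28 members besides PIGV differed between the lines, 13 higher and 9 lower in Huh7, beside 63.7% of all genes. Line and any batch of culture or sequencing cannot be told apart here. PIGW was 3.03-fold lower in Huh7 (adjusted p = 4.36e-08) and PIGF 3.17-fold lower (adjusted p = 1.37e-06). PIGV, whose control values were among those behind the choice and are given with no test, stood at 23.1 ± 3.85 CPM in HepG2 and 11.2 ± 0.964 in Huh7 on the scale shared by all libraries. MPPE1 was 2.71-fold higher in Huh7 (adjusted p = 4.15e-07), DPM3 2.35-fold, GPAA1 2.23-fold and PGAP1 2.13-fold. Of the transamidase genes, GPAA1, PIGS and PIGT were higher in Huh7 and PIGU was lower. PIGK, PIGN, PIGQ, PIGX, PGAP2 and PGAP3 did not pass the threshold.

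The members that rose in both lines, PIGW and DPM3, share a single coding exon, as do PIGC and PIGM and, in Huh7, PGAP4. This grouping was made after the values were seen and carries no test. The members with 1 coding exon had a median log2 fold change of 0.39 in HepG2 (n = 4, from -0.37 to 1.18) and 0.13 in Huh7 (n = 5, from -0.34 to 1.37). Those with 2 or more coding exons, PIGV among them, had a median of -0.30 in HepG2 and -0.62 in Huh7 (n = 25 each). Over all protein-coding genes tested, the medians were 0.10 and 0.12 for genes with 1 coding exon and -0.02 and -0.00017 for the rest. PIGC, with 1 coding exon, fell in both lines, and PIGM, also with 1, fell in Huh7 and was not called in HepG2.

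**Figure D4:**
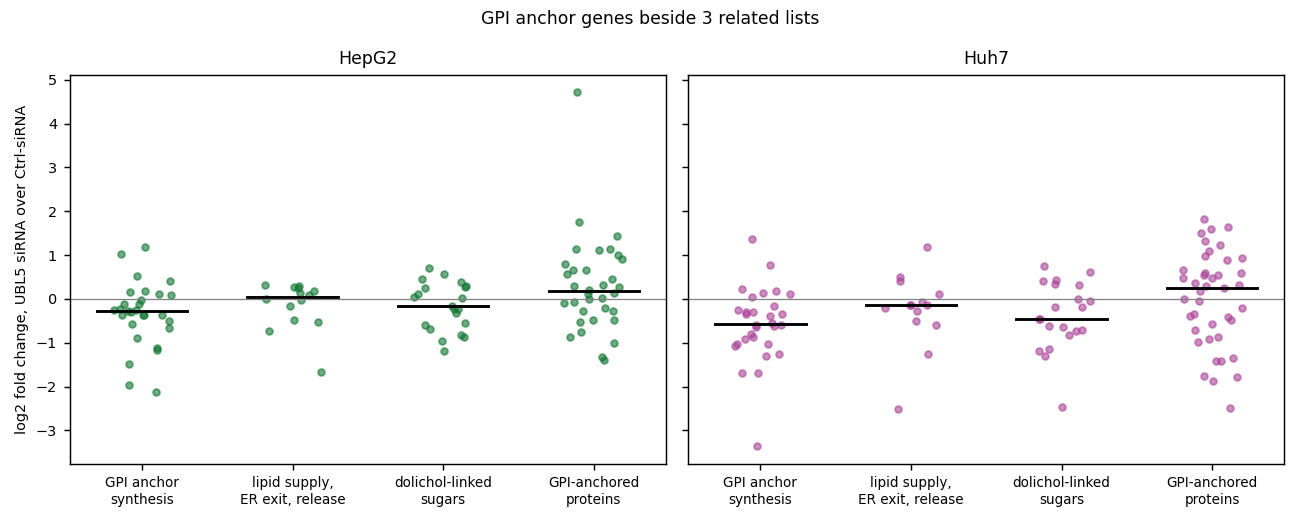
log2 fold change of each gene tested, UBL5 siRNA over Ctrl-siRNA (y axis), for the GPI anchor genes and 3 related lists (x axis) in HepG2 and Huh7; points are genes and horizontal lines are medians. The median of the GPI anchor genes is -0.28 in HepG2 and -0.57 in Huh7 with PIGV included, and that of the GPI-anchored proteins is 0.17 and 0.24.

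Genes that act before, after or beside the anchor pathway moved in both directions. Of 14 genes for lipid supply, ER exit and release of GPI proteins, 1 rose and 3 fell in HepG2, and 4 rose and 8 fell in Huh7. That is 28.6% called in HepG2 and 85.7% in Huh7, beside 36.7% and 71.3% of all genes. ARV1, an ER membrane protein of lipid transport that has been tied to GPI synthesis, fell from 16.2 ± 1.92 to 5.10 ± 0.848 CPM in HepG2 (log2 -1.67, adjusted p = 0.000285) and from 17.5 ± 1.07 to 3.04 ± 0.609 CPM in Huh7 (log2 -2.52, adjusted p = 1.94e-08). SEC24C, a coat protein of ER exit vesicles, fell by 0.49 and 0.27 (adjusted p = 0.00403 and 0.000400). Of SEC24C exon bases, 42.8% lie opposite ENSG00000279689 in the annotation, so reads of that partner may be among its counts.

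Dolichol-linked sugar synthesis makes the sugar tree for N-glycans and shares the mannose donor with the GPI pathway. Of its 21 genes, 5 rose and 7 fell in HepG2, and 6 rose and 13 fell in Huh7. That is 57.1% and 90.5% called, 33.3% and 61.9% lower, beside 20.1% and 36.4% of all genes lower. DPAGT1, which starts the tree, fell by 0.96 and 1.30 (adjusted p = 0.000250 and 6.68e-09). Of DPAGT1 exon bases, 26.4% lie opposite C2CD2L and ENSG00000289124 in the annotation. ALG10B, a glucosyltransferase whose reads are hard to separate from its close paralog ALG10, fell with log2 fold changes of -1.19 and -2.47 (adjusted p = 0.000828 and 1.09e-07).

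Of 82 genes for GPI-anchored proteins, 34 were tested in HepG2, of which 8 rose and 2 fell, and 41 in Huh7, of which 20 rose and 15 fell. In HepG2 29.4% were called and 5.88% were lower, beside 36.7% and 20.1% of all genes. In Huh7 85.4% were called and 36.6% were lower, beside 71.3% and 36.4% of all genes. Over all genes tested, 16.5% were higher in HepG2 and 34.9% in Huh7. CD14, a co-receptor for lipopolysaccharide, rose from 0.231 ± 0.0892 to 6.29 ± 1.40 CPM in HepG2 (log2 4.72, adjusted p = 0.000117) and from 1.66 ± 0.147 to 4.72 ± 0.570 CPM in Huh7 (log2 1.51, adjusted p = 6.11e-06). GPC6, a glypican, rose by 1.43 and 0.35 on the log2 scale (adjusted p = 7.05e-05 and 4.37e-05). GPC3 stood at 2630 ± 16.6 and 2908 ± 167 CPM in HepG2 and at 1151 ± 47.4 and 1106 ± 31.5 CPM in Huh7, not called in either line (adjusted p = 0.111 and 0.298). PLAUR, the urokinase receptor, rose from 2.51 ± 0.267 to 5.86 ± 0.213 CPM in Huh7 (adjusted p = 8.40e-06) and overlapped between the groups in HepG2 (adjusted p = 0.615). These are transcript levels, and no protein or anchor was measured.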

How the data were processed

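Per the labels and the study's methods, the authors made poly-A RNA-Seq libraries (TruSeq stranded mRNA), aligned reads to GRCh38 with STAR 2.7.6a and aggregated raw counts per gene with featureCounts; its strand setting, version and annotation are not given in the sources used here. The deposited tables held whole-number counts, plus fold changes and p-values of the authors' own comparisons (DESeq2 1.30.0), which were not used. All 12 count columns matched a library. Genes were joined by identifier to GENCODE (17603 of 17640 for HepG2, 18398 of 18434 for Huh7).

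The members and lists were chosen with earlier results of these data known. The 31 members are each described. From each related list, the 2 genes whose larger adjusted p over both lines was smallest are named, plus GPC3 and PLAUR, and UBL5 as a check.

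Counts were fitted over all genes with edgeR 4.0.16 in R 4.3.3 (filterByExpr with a minimum count of 10 and total of 15, TMM scaling, quasi-likelihood F test, Benjamini-Hochberg adjustment, threshold 0.05). HepG2 and Huh7 were fitted separately (15755 and 16965 genes tested). The difference between lines and the Ctrl-siRNA contrast came from 1 fit of 12 libraries over 15668 genes listed for both lines. CPM values use TMM library sizes, SE are of log2 fold changes, and levels per kb use all annotated exon bases. The script was tested on simulated data. Of genes given a log2 change of 0.5, 16.9% were called with that sign in HepG2 and 55.6% in Huh7. For the difference between the lines it was 9.09%. Far fewer genes were changed in the simulation than were called in the data, and the adjustment depends on that share. These rates may therefore be lower than those in the data. A missing call still does not show an unchanged gene, more so in HepG2. Alternatives were DESeq2 1.42.0, RLE size factors, no filter, a replicate block, leaving out each library, and, added after the data were seen, leaving out both HepG2 libraries numbered 3. The labels do not say whether replicates were separate cultures, so a p-value here reflects only how far these libraries vary, which may be technical. No replicate pair agreed within sampling noise. Depth was 19469574 to 29744471 counts per library.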

Additional observations from a re-analysis of the deposited data

Results flagged for a closer look

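For 9 of the 28 members tested besides PIGV the effect of UBL5 siRNA differed between Huh7 and HepG2, beside 21.5% of all genes. The test was the interaction test of edgeR over 3 libraries per siRNA and line. The difference of the log2 fold changes, Huh7 minus HepG2, was -1.58 for PGAP1, which rose in HepG2 and fell in Huh7. It was -1.34 for PIGZ and -0.92 for PGAP2, both of which fell in Huh7 and were not called in HepG2. PIGS (-0.59), PIGN (-0.54), PIGK (-0.47) and PIGG (-0.42) likewise fell in Huh7 and were not called in HepG2. DPM1 (-0.53) fell in both lines, and PIGU (-0.41) rose in HepG2 and was not called in Huh7. The PIGN difference was lost when any of 5 of the 12 libraries was left out (HepG2 UBL5 siRNA replicate 1, Huh7 Ctrl-siRNA replicates 1 and 2, Huh7 UBL5 siRNA replicates 2 and 3), with adjusted p of 0.0534 to 0.0673. Line and batch cannot be told apart.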

How the results depend on the processing

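Under DESeq2, RLE size factors, no filter and the replicate block, the count of members called was 13 to 15 in HepG2 (14 as reported) and 24 in Huh7. It was 9 or 10 for the difference between the lines (9 as reported). With each library left out in turn it was 7 to 15 in HepG2, 23 to 25 in Huh7 and 8 to 12 for the difference. Without both HepG2 libraries numbered 3, 16 were called in HepG2. In the Ctrl-siRNA contrast the 22 members called besides PIGV stayed called under every one of these alternatives. The value of PIGS in HepG2, -0.03 as reported, lay between -0.0589 and 0.0232 over the leave-outs, changing sign without Ctrl-siRNA replicate 2 (0.0232) and without UBL5 siRNA replicate 1 (0.00128).

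Same-numbered libraries deviated together with r of 0.124, 0.11 and 0.0729 in HepG2 and 0.161, 0.0155 and 0.212 in Huh7 (over genes, residuals from the group means), so not every pair passed 0.1 and the numbers were not taken as pairing. With the replicate block 15 members were called in HepG2, where GPAA1 passed (adjusted p = 0.00691), 24 in Huh7 and 10 for the difference. In HepG2 every library correlated best with its own number, and in Huh7 replicate 2 did not. Low counts limit PIGV in Huh7, where the UBL5 siRNA libraries held 14 to 34 counts.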
